A study of Mus musculus with 9 samples.

Results

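Astrocytes clear transmitter from the space around synapses, buffer its ions and water, and share small molecules with one another through gap junctions. The 9 genes described here encode the best known parts of that machinery. Slc1a2 and Slc1a3 encode the glutamate transporters GLT-1 and GLAST, and Glul encodes glutamine synthetase, which turns the glutamate they take up into glutamine. Slc6a11 encodes the GABA transporter GAT-3, and Slc7a10 encodes Asc-1, a transporter of small neutral amino acids. Slc4a4 encodes NBCe1, which moves sodium together with bicarbonate and so couples membrane voltage to acid and base balance. Aqp4 encodes the water channel of the perivascular endfeet, and Gja1 and Gjb6 encode connexin 43 and connexin 30, the gap junction proteins of astrocytes. The genes were taken by symbol, as 9 of the 31053 genes listed, by a rule that uses no measured value, although earlier results of these data were known when it was set.

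RNA was counted as unique molecular identifiers (UMIs) in single nuclei sorted from frozen, pooled cortex and hippocampus of 9 male, wild-type C57BL/6 mice, with 1 library per mouse. The mice formed 3 groups of 3, and each had received an adeno-associated virus (AAV) 8 weeks before the tissue was taken. The young AAV-EGFP mice were 5 months old and the aged AAV-EGFP mice 19 months old, and both carried EGFP, a fluorescent protein that served as the control. The aged AAV-B3GNT3 mice were also 19 months old and received the same vector carrying EGFP and B3GNT3, a glycosyltransferase of the mucin-type O-glycan pathway. In all groups the capsid was PHP.V1 and the transgene was driven by a short CLDN5 promoter meant for brain endothelial cells, so astrocytes were not its target. No mice without a virus were among the libraries. The comparison of aged with young AAV-EGFP mice addresses ageing, and that of aged AAV-B3GNT3 with aged AAV-EGFP mice addresses the treatment. The aged AAV-EGFP libraries enter both of these comparisons, and the comparison of aged AAV-B3GNT3 with young AAV-EGFP mice shares its libraries with one or the other. By the study's methods, its aged mice came from the National Institute on Aging and its young mice from Jackson Laboratories. Age and source of the mice thus cannot be told apart where aged mice are compared with young mice.

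The libraries held 47332047 to 79964605 UMIs, and 70471 nuclei of 77823 barcodes were kept. One cluster of 8402 nuclei was named astrocyte from 9 markers that exclude the genes described here, and all 9 were detected in every library. Summed over these nuclei, Aldoc lay between 130.7 and 216.6 CPM across libraries (UMIs of a gene scaled to a common total), Acsbg1 between 322 and 416 and Plpp3 between 841 and 1749. The astrocyte nuclei of a library numbered 587 to 1427 and held 1808271 to 4549901 UMIs. Their share of nuclei was 16.7, 13.9 and 13.4% in young AAV-EGFP replicates 1 to 3, 9.03, 8.39 and 8.61% in aged AAV-EGFP replicates 1 to 3, and 14.3, 15.4 and 7.43% in aged AAV-B3GNT3 replicates 1 to 3. Values below are astrocyte CPM on totals scaled by the trimmed mean of M values (TMM) unless another scale is named, listed for replicates 1 to 3 of a group. A gene was called where the adjusted p of edgeR's two-sided quasi-likelihood test over 12634 genes lay under 0.05.

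Slc4a4 was the one gene of the 9 that was called. Its gene covers 352.84 kb at chr5:88886818-89239653 on the plus strand (GRCm38, GENCODE vM21), and RefSeq places transcript starts at 2 sites 140.71 kb apart. The 250 bases before the downstream start, which lie in an intron of the longer transcripts, are shown with those before the start of Slc6a11, the gene with the next smallest adjusted p for the treatment. Both are from the RefSeq table of GRCm38.p6, on the plus strand and from 5′ to 3′, with each CG dinucleotide in capitals.
Slc4a4 downstream start, chr5:89027716-89027965: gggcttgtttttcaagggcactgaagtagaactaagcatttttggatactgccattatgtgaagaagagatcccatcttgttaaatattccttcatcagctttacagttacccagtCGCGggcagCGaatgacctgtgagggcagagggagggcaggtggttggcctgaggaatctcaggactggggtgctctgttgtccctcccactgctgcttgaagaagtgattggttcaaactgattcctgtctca
Slc6a11, chr6:114130991-114131240: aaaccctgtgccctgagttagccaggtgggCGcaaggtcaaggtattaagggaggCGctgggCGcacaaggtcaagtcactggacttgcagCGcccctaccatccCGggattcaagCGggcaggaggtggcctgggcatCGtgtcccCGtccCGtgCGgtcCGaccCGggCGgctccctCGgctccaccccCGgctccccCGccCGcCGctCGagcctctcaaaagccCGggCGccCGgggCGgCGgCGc
The Slc4a4 window held 3 CG dinucleotides and 48.8% G and C, and 37.8% of the 32851 windows of the same length in the table held as few or fewer. The Slc6a11 window held 25 and 71.2%. The 250 bases before the upstream Slc4a4 start, chr5:88887010-88887259, overlap an exon of another annotated transcript and held 44 CG dinucleotides and 82% G and C, which 0.539% of the windows reached or passed. The median window held 6 CG dinucleotides. UMI counts from the 3′ end do not tell which of the starts of Slc4a4 was used.

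In astrocytes Slc4a4 was at 2209, 2286 and 2577 CPM in young AAV-EGFP mice. It was at 2765, 2217 and 1869 CPM in aged AAV-EGFP mice. It was at 1296, 1381 and 1429 CPM in aged AAV-B3GNT3 mice. The 3 aged AAV-B3GNT3 libraries lay below all 6 others, while the young and aged AAV-EGFP libraries overlapped. With the treatment the level was 0.599 times that of aged AAV-EGFP mice, a log2 fold change of −0.74 (SE 0.16, adjusted p = 0.0200, edgeR). Against young AAV-EGFP mice it was 0.581 times as high, a log2 fold change of −0.78 (SE 0.16, adjusted p = 0.0164, edgeR). Between aged and young AAV-EGFP mice the log2 fold change was −0.05 (SE 0.16, adjusted p = 0.881). Slc4a4 thus made 1 of 9 genes called for the treatment, where 5.19% of all genes tested were called and 2.92% were called lower. It also made 1 of 9 called against young AAV-EGFP mice, where 2.56% of all genes were called and 1.07% were called lower.

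The call of Slc4a4 for the treatment was lost without aged AAV-EGFP replicate 2 (log2 fold change −0.76, adjusted p = 0.0543) and without aged AAV-B3GNT3 replicate 1 (−0.70, 0.0763) or replicate 2 (−0.73, 0.107). It was also lost when the estimated free RNA was subtracted (−0.66, adjusted p = 0.0858). The log2 fold change stayed between −0.88 and −0.58 when any 1 library was left out. Against young AAV-EGFP mice the call was lost in 5 of 9 such fits, without young AAV-EGFP replicate 2 or 3 or any 1 of the treated libraries (adjusted p of 0.0599 to 0.141). The difference was also seen in nuclei thinned to 1000 UMIs each, where 78.4 to 83.1% of astrocyte nuclei of the young AAV-EGFP libraries held an Slc4a4 UMI, 77.7 to 86.0% of the aged AAV-EGFP libraries and 68.3 to 71.5% of the aged AAV-B3GNT3 libraries. In oligodendrocytes, which serve as a measure of free RNA, the thinned means were 10.4, 3.67 and 7.25% in the same order of groups. Thinning left out 14, 17 and 14 astrocyte nuclei and 61, 701 and 187 oligodendrocytes. Without thinning, the astrocyte shares were 94.6 to 96.9%, 94.5 to 96.1% and 89.2 to 94.5%, at median depths of 2548 to 3603 UMIs per nucleus.

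**Figure D1:**
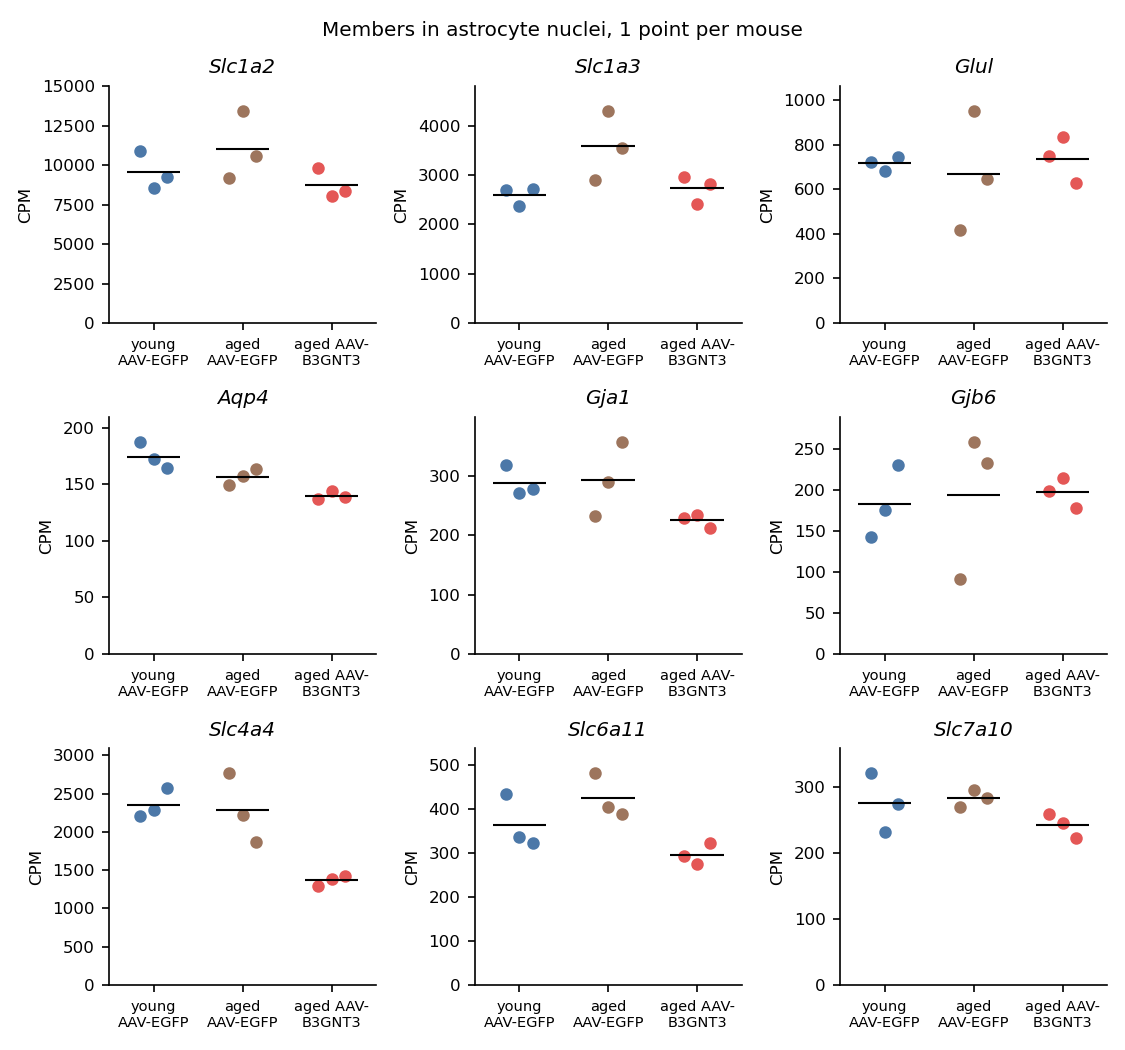
Level of each of the 9 genes in the astrocyte nuclei of each mouse. The y axis of each panel is CPM on TMM-scaled totals, the x axis holds the 3 groups, each point is 1 mouse and each line a group mean. The 3 aged AAV-B3GNT3 points of Slc4a4 sit between 1296 and 1429 CPM, below the other 6, and the aged AAV-EGFP points of Gjb6 and Glul are spread most widely.

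Log2 fold changes varied with gene length in these libraries, and Slc4a4 is the one member of 200 kb or more. Among the 942 such genes tested, the median log2 fold change was −0.32 with age, 0.09 with the treatment and −0.35 between aged AAV-B3GNT3 and young AAV-EGFP mice. With the treatment, 14.1% of them were called higher and 5.31% lower, Slc4a4 among the latter. Against young AAV-EGFP mice, 8.60% were called lower and 1.38% higher, and with age 35.1% lower and 2.34% higher. The 1300 genes of 100 to 200 kb had medians of −0.17 with age and 0.09 with the treatment. The 4799 genes under 20 kb had medians of 0.18 and −0.13. Of the latter, 7.17% were called higher and 1.23% lower with age, and 0.479% higher and 5.40% lower with the treatment. The part of length in the differences of Slc4a4 and of the genes on the fixed lists below was not tested.

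The glutamate transporters were not called in any comparison. Slc1a3 (chr15:8634124-8710764, minus strand) was at 2693, 2383 and 2719 CPM in young AAV-EGFP mice, 2907, 4294.5 and 3550 CPM in aged AAV-EGFP mice and 2955, 2422 and 2820 CPM in aged AAV-B3GNT3 mice. All 3 aged AAV-EGFP libraries were above all young ones, and the treated libraries lay among both. The log2 fold change with age was 0.46 (SE 0.16, adjusted p = 0.0729) and with the treatment −0.39 (SE 0.16, adjusted p = 0.169). The adjusted p with age fell under the threshold in DESeq2 (0.0386), on library totals alone (0.0458), with no filter on low counts (0.0436) and without aged AAV-EGFP replicate 1 (0.0178). Slc1a2 (chr2:102658659-102790784, plus strand) was at 10888, 8524 and 9259 CPM in young AAV-EGFP mice, 9182, 13404 and 10552 CPM in aged AAV-EGFP mice and 9824, 8029 and 8366 CPM in aged AAV-B3GNT3 mice. The ranges of the groups overlapped in each comparison, with a log2 fold change of 0.21 (SE 0.17, adjusted p = 0.459) for age and −0.34 (SE 0.17, adjusted p = 0.271) for the treatment. The antisense gene Gm13872 overlaps Slc1a2 and is counted on its own.

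Glul, the next step after glutamate uptake, was at 722, 682 and 745 CPM in young AAV-EGFP mice, 416, 950 and 647 CPM in aged AAV-EGFP mice and 749, 837 and 627 CPM in aged AAV-B3GNT3 mice. The aged AAV-EGFP libraries spanned the whole range of the other groups, with a coefficient of variation of 39.9% against 4.40% in young mice. Its log2 fold change was −0.09 with age (SE 0.22, adjusted p = 0.822) and 0.14 with the treatment (SE 0.22, adjusted p = 0.775). Both signs turned without aged AAV-EGFP replicate 1, to 0.15 and −0.11, and neither was called. Glul lies at chr1:153899944-153909723 and overlaps Teddm2 on the other strand.

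The amino acid transporters Slc6a11 and Slc7a10 both had lower values in the treated mice than in aged AAV-EGFP mice without being called. Slc6a11 (chr6:114131241-114249952, plus strand) was at 433, 336 and 322 CPM in young AAV-EGFP mice, 481, 403 and 388 CPM in aged AAV-EGFP mice and 292, 274 and 322 CPM in aged AAV-B3GNT3 mice. No treated library reached the lowest aged AAV-EGFP library, and the treated and young ranges overlapped. Its log2 fold change with the treatment was −0.52, or 0.699 times the level (SE 0.15, adjusted p = 0.0602). It passed in DESeq2 (adjusted p = 0.0334), with no filter on low counts (0.0402) and without young AAV-EGFP replicate 1 (0.0423), and its adjusted p was 0.256 without aged AAV-B3GNT3 replicate 2. Slc7a10 (chr7:35186385-35201114) was at 320, 231 and 274 CPM in young AAV-EGFP mice, 269, 295 and 284 CPM in aged AAV-EGFP mice and 259, 246 and 223 CPM in aged AAV-B3GNT3 mice. The treated libraries again did not overlap the aged AAV-EGFP libraries, at a log2 fold change of −0.22 (SE 0.14, adjusted p = 0.393). With age the log2 fold changes of Slc6a11 and Slc7a10 were 0.22 (SE 0.15) and 0.04 (SE 0.14), with adjusted p of 0.355 and 0.895.

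Aqp4, which lies on chromosome 18, varied little within groups, with coefficients of variation of 2.82 to 6.70%. It was at 187, 172 and 164 CPM in young AAV-EGFP mice, 149, 157 and 163 CPM in aged AAV-EGFP mice and 137, 144 and 138 CPM in aged AAV-B3GNT3 mice. None of the groups overlapped any other, but the steps were small. The log2 fold changes were −0.15 for age (SE 0.12, adjusted p = 0.435), −0.16 for the treatment (SE 0.12, adjusted p = 0.471) and −0.32 between aged AAV-B3GNT3 and young AAV-EGFP mice (SE 0.12, adjusted p = 0.176). Groups that did not overlap were common among all genes, at 30.1% for age, 24.4% for the treatment and 25.4% for the third comparison. Of the 9 genes, 2, 4 and 3 had groups that did not overlap in these comparisons.

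The connexins differed in how steady they were. Gja1 (chr10:56377330-56402513) was at 317, 270 and 277 CPM in young AAV-EGFP mice, 233, 290 and 356 CPM in aged AAV-EGFP mice and 229, 233 and 212 CPM in aged AAV-B3GNT3 mice. The treated libraries lay below the young ones, and the highest of them was just above the lowest aged AAV-EGFP library. The log2 fold change was −0.38 for the treatment (SE 0.15, adjusted p = 0.163), −0.36 against young AAV-EGFP mice (SE 0.15, adjusted p = 0.230) and 0.02 for age (SE 0.15, adjusted p = 0.943). Without aged AAV-EGFP replicate 1 the treatment passed, at −0.52 (adjusted p = 0.0423). Gjb6 (chr14:57123303-57133611, minus strand) was at 143, 175.8 and 230 CPM in young AAV-EGFP mice, 91.1, 259 and 233 CPM in aged AAV-EGFP mice and 199, 216 and 179 CPM in aged AAV-B3GNT3 mice. All ranges overlapped, and aged AAV-EGFP replicate 1 held the lowest of the 9 values and replicate 2 the highest. Its log2 fold change was 0.10 with age (SE 0.28, adjusted p = 0.858) and 0.02 with the treatment (SE 0.28, adjusted p = 0.976), the largest SE of the 9 genes.

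Of the 9 genes, 0 were called with age, where 12.2% of all genes tested were called. DESeq2 called 1 of the 9 with age, Slc1a3, and 2 with the treatment, Slc4a4 and Slc6a11. At an unadjusted p under 0.05, 3564 of the 12634 genes passed for age, 2784 for the treatment and 2297 for the third comparison. The median log2 fold change of the 9 genes was 0.04 with age, −0.34 with the treatment and −0.18 against young AAV-EGFP mice, and those of all genes tested were −0.0026, 0.014 and −0.024. The number of the 9 with a positive value was 6, 2 and 3. On library totals alone the median over all genes moved from 0.014 to 0.14 and that of the 9 genes to −0.20 with the treatment, and the split of all calls went from 287 higher and 369 lower to 581 higher and 260 lower. Against young AAV-EGFP mice the all-gene median moved from −0.024 to 0.12 and that of the 9 genes to −0.04, and the calls went from 189 higher and 135 lower to 356 higher and 80 lower. Aged AAV-EGFP replicate 2 held the highest value of 4 of the 9 genes, and each aged AAV-B3GNT3 library the lowest value of 2.

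**Figure D2:**
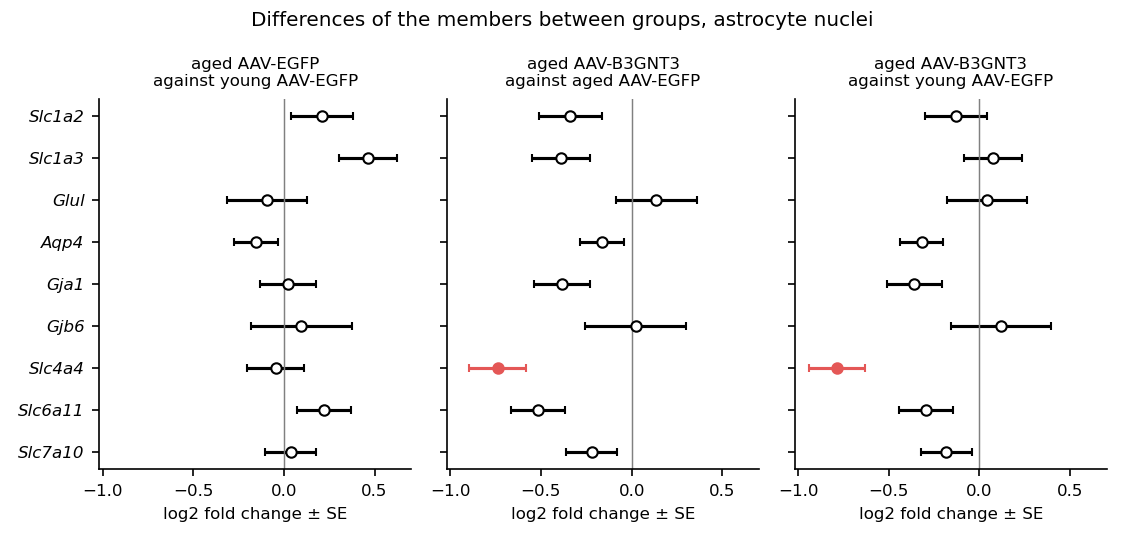
Log2 fold change of each of the 9 genes in astrocytes in the 3 comparisons, 1 panel each. Points are edgeR estimates, bars are ± SE and filled red points have an adjusted p under 0.05. Slc4a4 is filled for the treatment at −0.74 and against young AAV-EGFP mice at −0.78, and no gene is filled for age.

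Other genes of the same tasks were read from fixed lists. Over all 12634 genes tested, 613 were called higher and 925 lower with age, and 287 higher and 369 lower with the treatment. Of 22 genes of amino acid handling, 21 were tested, and 0 were called higher and 4 lower with age, with a median log2 fold change of −0.22. Slc38a2, a glutamine and neutral amino acid transporter, fell by 1.13 on the log2 scale (adjusted p = 0.0045), and the taurine transporter Slc6a6 fell by 0.84 (adjusted p = 0.0100). Grm5, a metabotropic glutamate receptor, fell by 1.35 (adjusted p = 0.0010). With the treatment 2 of the 21 were called higher and 1 lower, with a median of −0.16. Slc38a2 (0.81, adjusted p = 0.0474) and Slc6a6 (0.89, adjusted p = 0.0196) were called higher, and the call of Slc38a2 held in 14 of 22 other settings. With free RNA subtracted, Slc38a2 turned to −1.01 with the treatment (adjusted p = 0.570) and its call with age was lost (−1.28, adjusted p = 0.321). Grm5 and Slc6a6 were each tested in 21 of the 22 other settings, and no value with free RNA subtracted is given for them. Slc6a6 had means of 52.3, 29.0 and 53.7 CPM in the young control, aged control and treated mice. The gene that fell was Grm3, another metabotropic glutamate receptor, named here after its values were seen (−1.02, SE 0.25, adjusted p = 0.0286), and its call held in 16 of 22. Grm3 had a mean of 1774 CPM ± 124 (SD, n = 3) in young AAV-EGFP mice, 1475 ± 647 in aged AAV-EGFP mice and 726 ± 104 in aged AAV-B3GNT3 mice, and its treated range of 623 to 831 CPM lay just below the lowest aged AAV-EGFP value of 834.

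Of 22 genes of ion and water balance, 20 were tested, and 1 was called higher and 2 lower with age, with a median log2 fold change of −0.04. The sodium and calcium exchanger Slc8a1 fell by 1.45 (adjusted p = 0.00081), and the chloride cotransporter Slc12a2 fell by 1.03 (adjusted p = 0.0027). Atp1b2, a subunit of the sodium pump of astrocytes, rose by 0.62 (adjusted p = 0.0208). With the treatment 1 was called higher, Slc12a2 (0.73, adjusted p = 0.0348), and 1 lower, Atp1b2 (−0.60, adjusted p = 0.0410), with a median of −0.22. Over 22 other settings the treatment call held in 10 for Atp1b2 and 13 for Slc12a2, and with free RNA subtracted they stood at −0.50 (adjusted p = 0.191) and 1.18 (adjusted p = 0.249). With age, free RNA subtraction also ended the calls of Slc12a2 (−1.86, adjusted p = 0.0759) and Atp1b2 (0.50, adjusted p = 0.155), and that of Atp1b2 held in 16 of 22. Slc8a1 was tested in 21 of the 22 settings, and no value with free RNA subtracted is given for it. Slc12a2 had means of 70.9, 35.1 and 57.9 CPM and Atp1b2 of 123, 188 and 125 CPM in the young control, aged control and treated mice. Of 12 other gap junction genes 4 were tested, and 0 were called with age or with the treatment by edgeR.

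Several genes of the reactive state rose with age. Of 9 listed, 8 were tested and 6 were called higher with age, with a median log2 fold change of 0.78. They were the lipoprotein gene Apoe (1.14, adjusted p = 0.0024), S100b (0.95, adjusted p = 0.0041), the filament gene Gfap (0.87, adjusted p = 0.0268), the small heat shock protein gene Cryab (0.91, adjusted p = 0.0314), the complement gene C4b (0.69, adjusted p = 0.0471) and Clu (0.62, adjusted p = 0.0472). Gfap and C4b are named here after their values were seen. With the treatment 0 were called higher and 3 lower, Apoe (−1.22, adjusted p = 0.0106), Cryab (−1.64, adjusted p = 0.0114) and Clu (−0.87, adjusted p = 0.0220), and the median was −0.47. With free RNA subtracted all 6 calls with age were lost, at adjusted p of 0.0575 to 0.237, while the log2 fold changes kept their direction, from 0.51 for Clu to 1.03 for Cryab. The treatment calls of Apoe (−1.13, adjusted p = 0.0623) and Clu (−0.77, adjusted p = 0.125) were lost there too, and the treatment call of Clu held in 16 of 22 other settings. Over 22 other settings the call with age held in 11 for Clu and 12 for C4b, and in 21 for Apoe and for S100b. Gfap (0.25, adjusted p = 0.581) and C4b (0.31, adjusted p = 0.424) were not called with the treatment. Between aged AAV-B3GNT3 and young AAV-EGFP mice 2 of the 8 were called higher, Gfap (1.118, adjusted p = 0.0198) and C4b (1.0003, adjusted p = 0.0212), and 0 lower. The 3 that fell with the treatment are genes that the study itself picked from these libraries, so their direction is not independent evidence. Apoe had a mean of 294 CPM ± 63.8 (SD, n = 3) in young AAV-EGFP mice, 647 ± 174 in aged AAV-EGFP mice and 278 ± 19.3 in aged AAV-B3GNT3 mice. Of 4 regional markers, 4 were tested and 0 were called with age or with the treatment.

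Markers of other cell types in the astrocyte nuclei also differed between groups. The summed oligodendrocyte list was at 457 to 590 CPM of raw totals in young AAV-EGFP libraries, 277 to 386 in aged AAV-EGFP libraries and 411 to 445 in aged AAV-B3GNT3 libraries. The inhibitory neuron list was at 227 to 298, 105 to 150 and 151 to 265 CPM, and the pericyte list at 143 to 177, 211 to 238 and 215 to 248.6 CPM. In astrocytes the pericyte list was at 217 to 596% of its level over all barcodes, against 17.4 to 34.6% for the oligodendrocyte list. The pericyte list was thus enriched in astrocytes, yet it enters the free RNA estimate subtracted there, which may be too high. The choroid plexus list was at 24.6 to 87.5, 30.6 to 44.4 and 62.1 to 143 CPM, with the treated libraries above the aged AAV-EGFP libraries without overlap. The oligodendrocyte and inhibitory neuron lists were lowest in the aged AAV-EGFP libraries, and so was the list of oligodendrocyte precursors (74.2 to 97.3 CPM, against 110.1 to 173 in young and 111 to 140.1 in treated libraries). Their part in the results on the 9 genes was not tested beyond the subtraction of free RNA.

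The 9 genes were also compared between astrocyte nuclei with and without a Gfap UMI within each mouse. The share of astrocyte nuclei with a Gfap UMI was 11.1 to 11.9% in young AAV-EGFP libraries, 8.44 to 19.4% in aged AAV-EGFP libraries and 16.2 to 25.4% in aged AAV-B3GNT3 libraries. Aqp4 was 2.38 times as high in nuclei with a Gfap UMI as in those without (median of 9 libraries, range 2.03 to 3.01), and Gja1 was 1.30 times as high (1.13 to 1.88). Slc7a10 was 0.683 times as high (0.558 to 0.748) and Slc1a3 0.921 times (0.864 to 0.950), each below 1 in 9 of 9 libraries. Slc6a11 was at 0.854 times, below 1 in 8 of 9, and Gjb6 at 0.876 times, below 1 in 7 of 9. Slc1a2 was at 1.03 times (1.02 to 1.17). Slc4a4 was at 0.977 times (0.892 to 1.18) and Glul at 0.996 times (0.917 to 1.28), each below 1 in 5 of 9 libraries. The 2 connexins, which can join in the same plaques, thus went opposite ways in most libraries. In nuclei without a Gfap UMI the log2 fold change of Slc4a4 was −0.77 with the treatment (adjusted p = 0.0177). The nuclei with a Gfap UMI were somewhat deeper, at medians of 2811 to 3868 UMIs against 2477 to 3501, and this is a description with no test.

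Outside astrocytes each level was set beside an estimate of free RNA, the CPM that stray transcripts in the droplet would give, from the markers of other classes. These levels are CPM of raw class totals. In astrocytes the 9 genes stood at 13.2 to 97.6 times the estimate. A gene was taken as present in oligodendrocytes, brain endothelial cells, excitatory neurons or inhibitory neurons where it was at least 2 times the estimate in all 9 libraries. By that rule Glul was present in oligodendrocytes (median 264.5 CPM, at least 6.85 times the estimate) and in brain endothelial cells (270.0 CPM, at least 3.34 times), and Slc4a4 in excitatory neurons (169.0 CPM, at least 2.03 times) and inhibitory neurons (569.0 CPM, at least 2.69 times). The other genes did not pass in these classes, with Slc1a2 in excitatory neurons (median 402 CPM, at least 1.92 times) and Slc1a3 in oligodendrocytes (189 CPM, at least 1.87 times) close to the limit. In microglia, Glul (median 148 CPM, 1.99 to 4.37 times) and Slc1a3 (349 CPM, 1.54 to 6.59 times) also fell short of the rule. In oligodendrocyte precursors and choroid plexus epithelium the estimate could not be used.

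**Figure D3:**
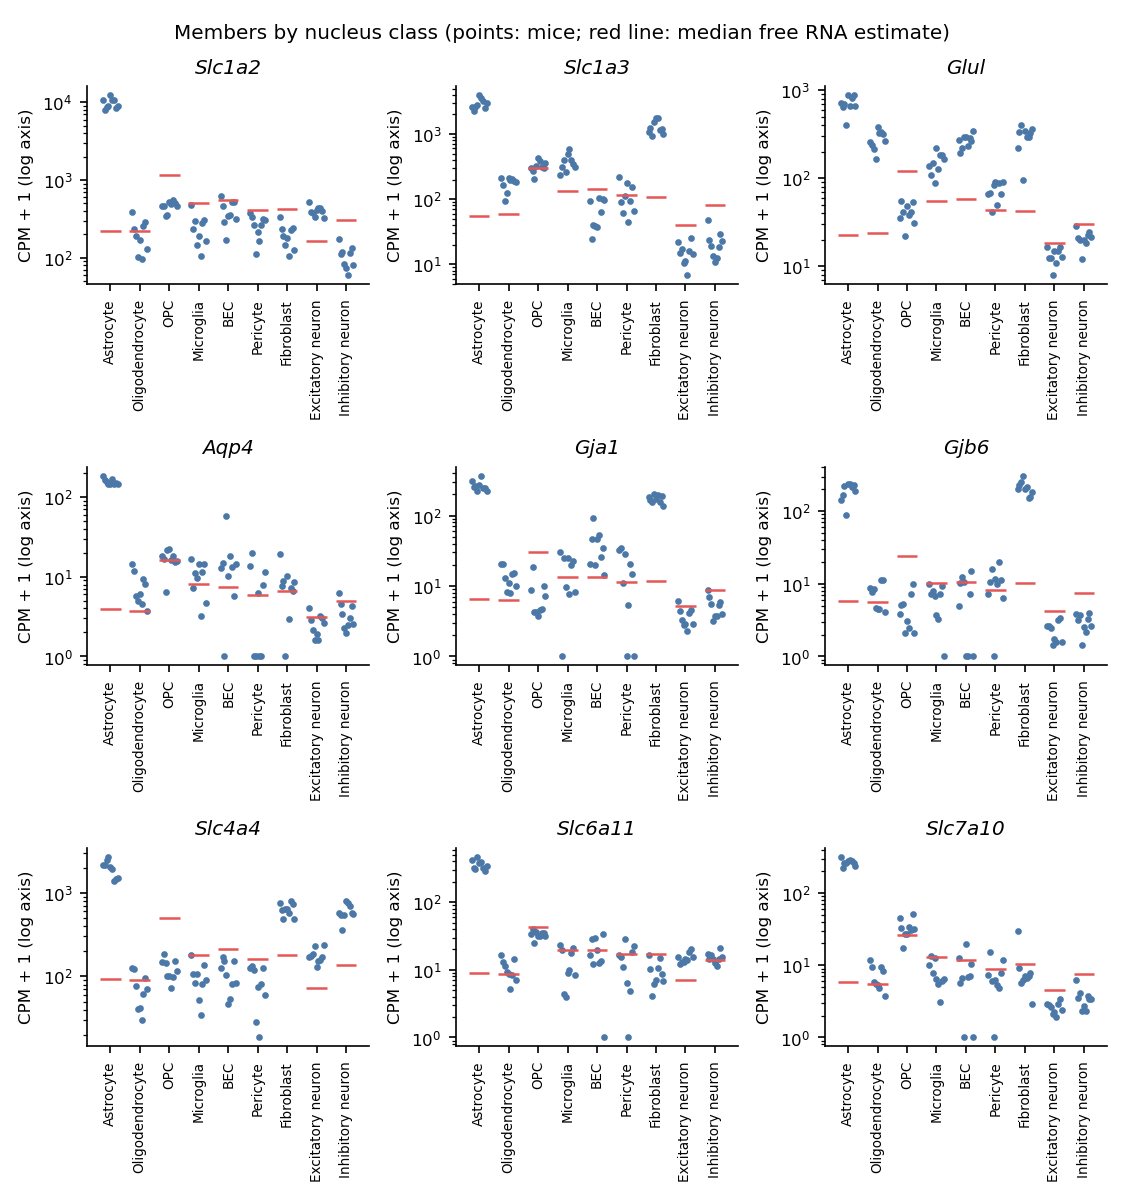
Level of each of the 9 genes in 9 classes of nuclei. The y axis is CPM of raw class totals plus 1 on a log scale, each point is 1 mouse and the red line is the median estimate of free RNA. Astrocyte points lie 13.2 to 97.6 times above the estimate, and Slc4a4 in inhibitory neurons and Glul in oligodendrocytes also lie above it in every mouse.

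None of these 4 combinations was called, against 21.6% of genes in oligodendrocytes, 7.57% in brain endothelial cells, 14.1% in excitatory neurons and 3.26% in inhibitory neurons for age, and 10.3, 3.27, 2.23 and 0.0904% for the treatment. Glul in oligodendrocytes was at 256, 244 and 223 CPM in young AAV-EGFP mice, 169, 400 and 329 CPM in aged AAV-EGFP mice and 316, 300 and 256 CPM in aged AAV-B3GNT3 mice, on TMM-scaled totals. Aged AAV-EGFP replicate 1 was the lowest of all and replicate 2 the highest, as for Glul in astrocytes. The log2 fold change with age was 0.32 (SE 0.23, adjusted p = 0.338), and without that replicate 1 it was 0.59 (adjusted p = 0.0063). With the treatment it was −0.05 (adjusted p = 0.918). Glul in brain endothelial cells was at 0.35 with age (adjusted p = 0.459) and −0.0011 with the treatment (adjusted p = 0.999).

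Neuronal Slc4a4 was held by a few clusters. Among inhibitory neurons, a cluster of 3729 nuclei with Drd2, Sh3rf2 and Rgs9 among its leading genes had a median of 1279 CPM of raw totals (1053.5 to 1825 over libraries), where other inhibitory clusters had medians of 148 to 291 CPM. Among excitatory neurons, a cluster of 1216 nuclei led by Dsp and Glis3, with Prox1os among its leading genes, had a median of 933 CPM (700.1 to 1204), and the cluster with the least had 31.5 CPM. In the whole inhibitory class the log2 fold change of Slc4a4 was 0.53 with age (adjusted p = 0.128) and −0.35 with the treatment (adjusted p = 0.375). Without another inhibitory cluster of 3503 nuclei, which held the most Slc17a6, a marker of excitatory neurons, they were 0.45 (adjusted p = 0.142) and −0.41 (adjusted p = 0.229). That cluster held 102 to 779 nuclei per library. Without the Drd2 cluster they became −0.17 (adjusted p = 0.690) and 0.03 (adjusted p = 0.969), and both splits were chosen after the clusters were seen. The Drd2 cluster made up 22.3, 33.4 and 16.5% of inhibitory nuclei in young AAV-EGFP libraries, 32.6, 36.2 and 44.1% in aged AAV-EGFP libraries and 38.3, 36.0 and 25.7% in aged AAV-B3GNT3 libraries. Within it Slc4a4 was at 1170.5, 1196 and 1096 CPM in young AAV-EGFP mice, 1353, 2034 and 1347 CPM in aged AAV-EGFP mice and 1209, 1120 and 1199 CPM in aged AAV-B3GNT3 mice, on TMM-scaled totals. The aged AAV-EGFP values were above all others, at log2 fold changes of 0.45 with age (adjusted p = 0.104) and −0.42 with the treatment (adjusted p = 0.200). In excitatory neurons Slc4a4 was at −0.07 with age (adjusted p = 0.839) and −0.02 with the treatment (adjusted p = 0.965). The treated and young values lay close together in the Drd2 cluster, unlike in astrocytes, and the difference between these classes was not tested.

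**Figure D4:**
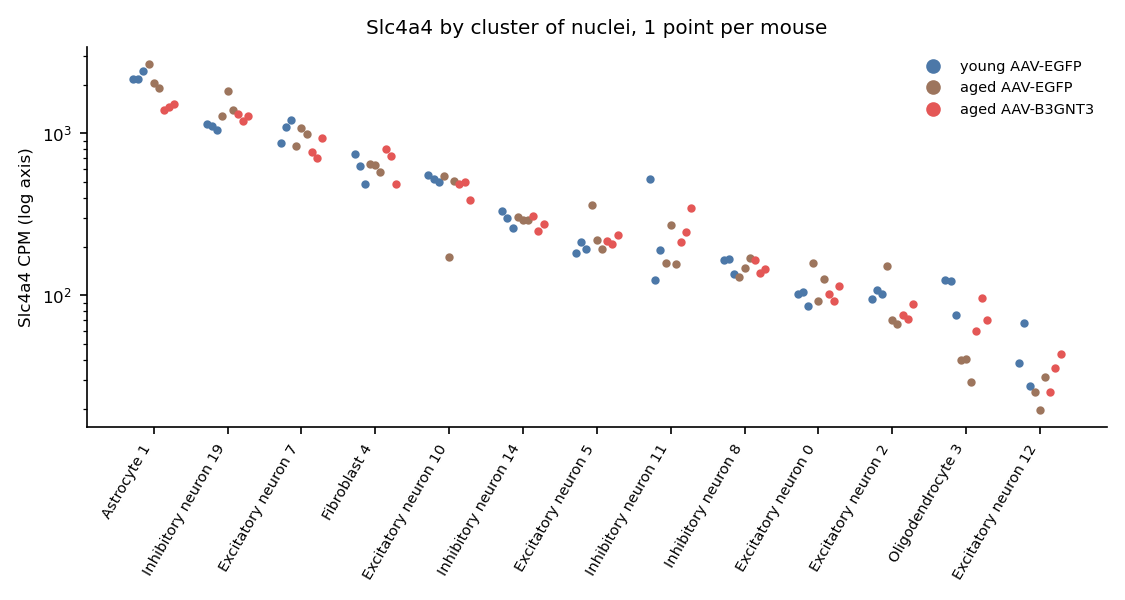
Level of Slc4a4 in each cluster of astrocytes, fibroblasts, oligodendrocytes, and excitatory and inhibitory neurons, as CPM of raw cluster totals on a log axis. Each point is 1 mouse, coloured by group. The Drd2 cluster of inhibitory neurons (median 1279 CPM) and 1 excitatory cluster (933 CPM) come closest to the astrocytes among named clusters, and the aged AAV-B3GNT3 points are lowest in the astrocyte cluster.

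A cluster of fibroblast nuclei also held several of the genes. It had 1743 nuclei, 81 to 321 per library, and 3 markers each of endothelial cells and pericytes beside 4 of fibroblasts. Its medians were 201 CPM for Gjb6, which was 96.1% of the astrocyte level, 171 CPM for Gja1 and 1199 CPM for Slc1a3, which was 44.6% of the astrocyte level. Glul was at 322 CPM and Slc4a4 at 641 CPM, or 31.2% of the astrocyte level. All 5 were at least 2.52 times the free RNA estimate in every library. Aqp4, Slc6a11 and Slc7a10 were near 0 in it, with medians of 6.72, 7.80 and 6.10 CPM, and Slc1a2 at 188 CPM was at 0.288 to 0.494 times the estimate. In this cluster the summed astrocyte markers were at 117 to 240% of their level over all barcodes. They enter the estimate, which may thus be too high here, and its ratios are given with that limit.

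The classes differed in how many of the genes had their lowest mean in the aged AAV-EGFP libraries, on CPM of raw totals. In oligodendrocytes this mean was lowest in the aged AAV-EGFP libraries for 7 of the 9 genes, all but Glul and Slc1a3. The same held for 7 of 9 in excitatory neurons, 8 of 9 in inhibitory neurons, 7 of 9 in pericytes and 6 of 9 in microglia. It held for 5 of 9 in oligodendrocyte precursors and in choroid plexus epithelium, and for 4 of 9 in fibroblasts. It held for 3 of 9 in brain endothelial cells and for 1 of 9 in astrocytes, which was Glul. The share of all genes with their lowest mean in these libraries was not computed, so the counts have no background. Some of these means also rest on very few UMIs. Over all libraries, pericytes held 13 UMIs of Aqp4 and 13 of Slc7a10, and choroid plexus epithelium 7 of Aqp4 and 0 of Slc6a11. Differences between the classes in these counts are thus not interpreted. The count in excitatory neurons includes Slc4a4, which was above the free RNA estimate there, and whose mean on TMM-scaled totals was lowest in the treated libraries. The summed astrocyte markers in oligodendrocytes, without the 9 genes, were at 247, 187 and 134 CPM of raw totals in young AAV-EGFP libraries, 147, 154 and 139 in aged AAV-EGFP libraries and 214, 229 and 148 in aged AAV-B3GNT3 libraries. The astrocyte share of nuclei was also lowest on average in the aged AAV-EGFP libraries, at 8.68% ± 0.32 (SD, n = 3), against 14.7% ± 1.77 in young and 12.4% ± 4.33 in treated libraries. The part of that share in these levels was not tested.

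With the treatment Slc4a4 had opposite directions in astrocytes and at the free RNA level of oligodendrocytes, a comparison chosen after the values were seen. In oligodendrocytes it was at 124, 123 and 75.5 CPM of raw totals in young AAV-EGFP mice, 40.1, 40.6 and 29.0 CPM in aged AAV-EGFP mice and 59.97, 96.0 and 69.9 CPM in aged AAV-B3GNT3 mice. The aged AAV-EGFP libraries were below all others, and every value was under the free RNA estimate, at 0.407 to 0.873 times. The log2 fold change was −1.56 with age and 0.94 with the treatment (adjusted p = 0.0196), both called. Slc1a2, at 384, 231 and 187 CPM, then 100.3, 168 and 95.2 CPM and then 256, 287 and 130 CPM in the same order of groups, was also called lower with age there, but its treated and aged AAV-EGFP libraries overlapped and the treatment was not called (adjusted p = 0.132). Gja1 was the third gene called lower with age in oligodendrocytes (−1.12, adjusted p = 0.0105). Of 9 genes tested there, 3 were called with age and 1 with the treatment, where 21.6 and 10.3% of all genes were called. The values of Slc4a4 and of Slc1a2, which was at 0.659 to 0.909 times the estimate, are read as background and not as expression by oligodendrocytes. Gja1 was at 1.53 to 2.81 times the estimate and did not pass the rule of 2 times in all 9 libraries. In oligodendrocyte precursors, where the free RNA estimate could not be used, 2 of 7 genes tested were called with age, against 5.84% of all genes. Slc1a3 was higher (0.53, adjusted p = 0.0496), at 307, 289 and 216 CPM on TMM-scaled totals in young AAV-EGFP mice and 345, 461 and 365 CPM in aged AAV-EGFP mice, and Slc4a4 was lower (−0.79, adjusted p = 0.0142). In microglia 2 of 5 genes tested were called with age, Slc1a2 and Slc4a4 (−1.06, adjusted p = 0.0419), both lower. There 909 of 7777 genes were called. In excitatory and in inhibitory neurons 3 of 9 were called with age, Slc1a3, Aqp4 and Gja1, all lower. The shares of all genes called there were 14.1 and 3.26%. These genes lay under the free RNA estimate of microglia and neurons in every library.

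**Figure D5:**
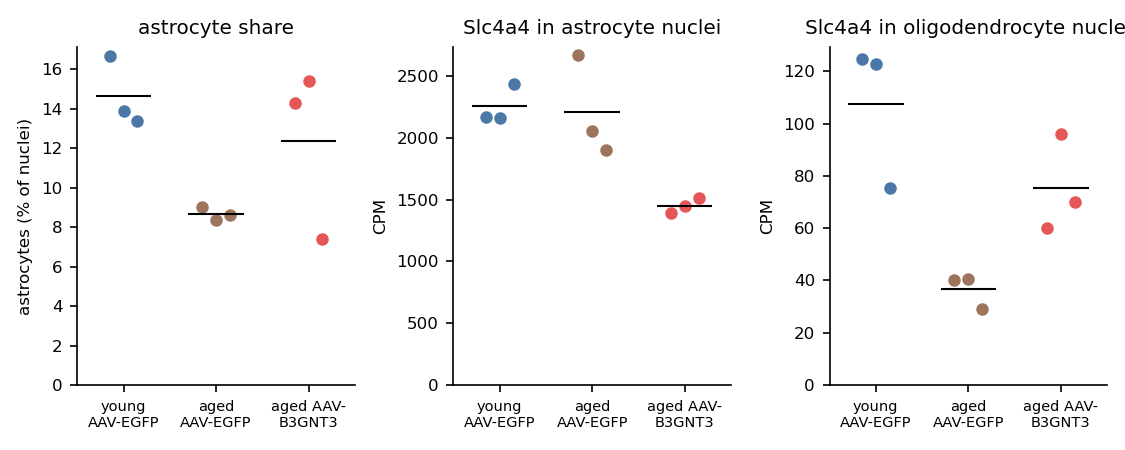
Astrocyte share of nuclei in percent, Slc4a4 in astrocyte nuclei and Slc4a4 in oligodendrocyte nuclei, 1 panel each, with 1 point per mouse. The last panels are in CPM of raw class totals. The aged AAV-EGFP points are lowest for Slc4a4 in oligodendrocytes (29.0 to 40.6 CPM), and the aged AAV-B3GNT3 points are lowest for Slc4a4 in astrocytes.

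Genes with the most similar levels across classes and groups were found by Pearson's r over 30 points of class and group among 7493 genes, as a description in which the points of a class share their libraries and depth. For Slc1a2 they were Ntsr2 (0.918), Dbx2 (0.916) and its own antisense gene Gm13872 (0.910). Slc1a3 was nearest to Appl2 (0.925), Sugct (0.910) and Plpp3 (0.901), and Glul to Tsc22d3 (0.952), Selenop (0.936) and Fgd6 (0.896). Aqp4 was nearest to Ntsr2 (0.938), Acsbg1 (0.909) and Prdx6 (0.904). Gja1 was nearest to Fgd6 (0.958), Scara3 (0.900) and Fzd2 (0.883), and Gjb6 to Fzd2 (0.950), Slc7a11 (0.930) and Tfcp2l1 (0.915). Slc4a4 had the lowest likeness of the 9, with Csdc2 (0.884), Igdcc4 (0.843) and Slc22a4 (0.827). Slc6a11 was nearest to Acsbg1 (0.906), Prkd1 (0.889) and Chst2 (0.884), and Slc7a10 to Gldc (0.963), Nwd1 (0.951) and Atp13a4 (0.924).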

How the data were processed

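The deposited files hold raw UMI counts for each gene in each nucleus, made by the authors with Cell Ranger on mm10 (GRCm38). Per the file headers the version is 7.2.0, while the submitters' processing notes name 4.0.0, and the barcodes listed had passed the filter of Cell Ranger. Whether intronic reads were counted is not given in the sources used here. The study removed free RNA with SoupX and doublets with DoubletFinder, and the steps here start from the raw counts.

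Nuclei outside 200 to 5000 genes, or over 10% mitochondrial UMIs, were dropped, which left 74895 of 77823 barcodes, of which 4424 were removed by a doublet score at a preset rate of 0.8% per 1000 barcodes. Libraries shared 7 to 37 barcodes per pair. Nuclei were clustered in scanpy 1.11.5 (2000 variable genes, 15 components, 20 neighbours, Leiden resolution 0.3) with the 9 genes left out of clustering and of the marker lists. Counts were summed per mouse and class and tested with edgeR 4.0.16 (TMM, filterByExpr with minimum count 10, quasi-likelihood test, 9 samples in 1 fit, Benjamini-Hochberg adjustment over all genes tested), which was tested on simulated data. The study tested such sums with DESeq2, here an alternative (1.42.0). Free RNA was estimated from markers of other classes and the CPM over all barcodes, since empty droplets were not used here. The variance between replicate counts was 3.86 to 8.39 times that of counting noise, as chi-square per degree of freedom. Same-numbered samples did not pair, with correlations of −0.19 to 0.32 over 9 pairs. The 9 genes and all lists were chosen with earlier results of these data known. The text names all 9 genes and, from each list, the 4 genes with the smallest adjusted p among those called with age or with the treatment, except 1 gene that is not reported here.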

Additional observations from a re-analysis of the deposited data

How the results depend on the processing

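In astrocytes the 9 genes were all tested under every setting that was run. With age, 1 of them was called instead of 0 by DESeq2, on library totals alone and with no filter on low counts, and 0 to 1 when 1 library was left out. With the treatment, 2 were called by DESeq2 and with no filter, 0 with free RNA subtracted, and 0 to 2 when 1 library was left out. Against young AAV-EGFP mice, 0 to 1 were called when 1 library was left out, and the call of Slc4a4 was lost without young AAV-EGFP replicate 2 or 3 or any 1 of the aged AAV-B3GNT3 libraries. Over all genes, the 1538 calls with age became 66 with free RNA subtracted, 725 in thinned nuclei and 666 to 2274 without 1 library (877 and 795 without young AAV-EGFP replicate 2 or 3, 761 and 666 without aged AAV-EGFP replicate 2 or 3). The 656 calls with the treatment became 1371 with no filter, 39 with free RNA subtracted, 368 in thinned nuclei and 12 to 787 without 1 library, with 12 left without aged AAV-B3GNT3 replicate 2, 298 without its replicate 1, and 183 where aged AAV-EGFP replicate 2 was left out. The 324 calls against young AAV-EGFP mice became 1080 with no filter, 761 with only the groups compared, 148 with free RNA subtracted, 187 in thinned nuclei and 68 to 708 without 1 library (88 and 127 without young AAV-EGFP replicate 2 or 3, 68 and 187 without aged AAV-B3GNT3 replicate 1 or 3, 708 and 499 without aged AAV-EGFP replicate 1 or 3). In other classes, 0 to 2 of the 4 combinations were called with age when 1 library was left out, both Glul in oligodendrocytes and Slc4a4 in inhibitory neurons (0.69, adjusted p = 0.0466) without aged AAV-EGFP replicate 1. The cause of these shifts was not tested.

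Signs that turned belonged to changes that were not called, except Slc38a2 with the treatment, which went to −1.01 with free RNA subtracted (adjusted p = 0.570). With free RNA subtracted, the changes with age became −0.11 for Gja1, −0.023 for Gjb6 and −0.095 for Slc7a10. Slc1a2 against young AAV-EGFP mice was at 0.019 on library totals alone, Slc4a4 with age at 0.037 in thinned nuclei, and Slc4a4 in inhibitory neurons without the Drd2 cluster at −0.17 with age and 0.026 with the treatment. When 1 library was left out, the log2 fold change with age ranged from −0.16 to 0.43 for Gjb6, −0.10 to 0.16 for Gja1, −0.076 to 0.16 for Slc7a10, −0.21 to 0.12 for Slc4a4, −0.43 to 0.15 for Glul and −0.63 to 0.058 for Grm3. With the treatment it ranged from −0.11 to 0.47 for Glul, −0.31 to 0.28 for Gjb6 and −0.041 to 0.44 for Gfap, and against young AAV-EGFP mice from −0.037 to 0.34 for Gjb6 and −0.025 to 0.18 for Glul. With the replicate number as a block, 0, 1 and 1 of the 9 genes were called for age, the treatment and the third comparison, among 1435, 612 and 334 of all genes, and Slc4a4 stood at −0.73 with the treatment (adjusted p = 0.0285). The numbers do not pair the samples. The settings for other classes and for the neuron clusters were chosen after seeing the data. Of the gene values in astrocytes, and of Slc4a4 in inhibitory neurons without a cluster, 1069 kept their direction and side of the threshold, 100 lost and 15 gained a call, and 24 turned sign. Of 112 further values of Glul and Slc4a4 in other classes, 2 gained a call, 0 lost one and 21 turned sign. With 3 mice per group, the p-values set a difference between groups against the spread between mice. That spread was estimated from the libraries in a fit, with information shared across genes.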
